A study of Rattus norvegicus with 42 samples.

Results

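The response of the rat retina to damaging light was compared after an injection of nanoceria, across all genes of the deposited count table. The comparison sets the 5 libraries of retinas that received nanoceria and then light against the 4 that received nanoceria alone. These 9 libraries were taken by their labels, out of 31 with a count column and 42 labelled samples. The study asked how nanoceria, nanoparticles of cerium oxide that take up reactive oxygen species, bear on retinal degeneration caused by light. Adult rats, whose strain and sex the labels do not give, received 1 mM nanoceria into the vitreous, the gel that fills the eye. One set of them was then exposed to light of 15000 lux for 24 h, and the other was not. PolyA RNA of the retina was sequenced, from libraries that the labels call biological replicates, and 4 other groups hold untreated control rats, light alone, vehicle alone and vehicle plus light.

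Rods are the light-sensing cells of dim vision and make up most cells of a rodent retina. The visual pigment, once it has absorbed light, activates the G protein transducin, which activates a phosphodiesterase and closes cation channels gated by cyclic GMP. Prolonged bright light damages rods in albino and pigmented rodents, and Müller glia, which span the retina, and microglia, its resident immune cells, respond to stressed photoreceptors. The cytokine leukemia inhibitory factor (LIF) is made by Müller glia of the damaged retina and signals through gp130 and STAT3, and endothelin 2 is made by stressed photoreceptors.

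Total counts per library were 83372000 to 113801610 for nanoceria and 97980166 to 120285482 for nanoceria plus light. Lens genes took 0.0861% to 1.43% of the counts with nanoceria and 0.0558% to 1.04% with light (2-sided exact permutation test, p = 0.873, adjusted over 3 shares 0.873). Mitochondrial genes took 6.24% to 7.36% and 6.25% to 7.45% (exact p = 0.556, adjusted 0.833). The 20 largest genes took 11.5% to 13.5% and 8.75% to 10.7%, without overlap (exact p = 0.0159, adjusted 0.0476, the smallest that 5 against 4 libraries allow before adjustment). Among the light libraries, replicate 4 stood apart in rod genes: it was the lowest of the 5 in 20 of 20 rod genes tested. The Y-linked gene Eif2s3y was at 0.071, 0.0118, 49.5 and 53.7 CPM with nanoceria and 50.7, 0.00964, 48.8, 55.1 and 2.72 CPM with light, with high and low libraries in both groups and light replicate 5 between them. Defining markers of neural retina were present, with Gnat1, the alpha subunit of rod transducin, at 8410.0 to 14765 CPM before light. Markers of the pigment epithelium that underlies the retina were also present, at a summed 3402 to 5294 CPM without light and 2107 to 4714 CPM with it.

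Light after nanoceria changed 2520 of 18094 genes tested, or 13.9%, at an adjusted p under 0.05 in edgeR's quasi-likelihood test, the source of every adjusted p given here unless another test is named. Of these, 1474 rose (8.15%) and 1046 fell (5.78%). At least 2-fold changes were found for 324 of the genes that rose and 236 of those that fell. The median log2 fold change over all genes tested was 0.04. The split of calls depended on the scaling: 58.5% of them were higher with the TMM factors of edgeR, 46.1% with the size factors of DESeq2 and 68.8% with library size alone. It also moved with libraries outside the 2 groups. With TMM factors, 50.5% were higher without control replicate 6 and 50.6% without light damage replicate 1. With a fit of only these 9 libraries, which leaves fewer residual degrees of freedom, 1107 genes were called. The genes that fell numbered 695 without nanoceria replicate 2 and 697 without light replicate 4. Without light replicate 5, 2522 genes were called.

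**Figure D1:**
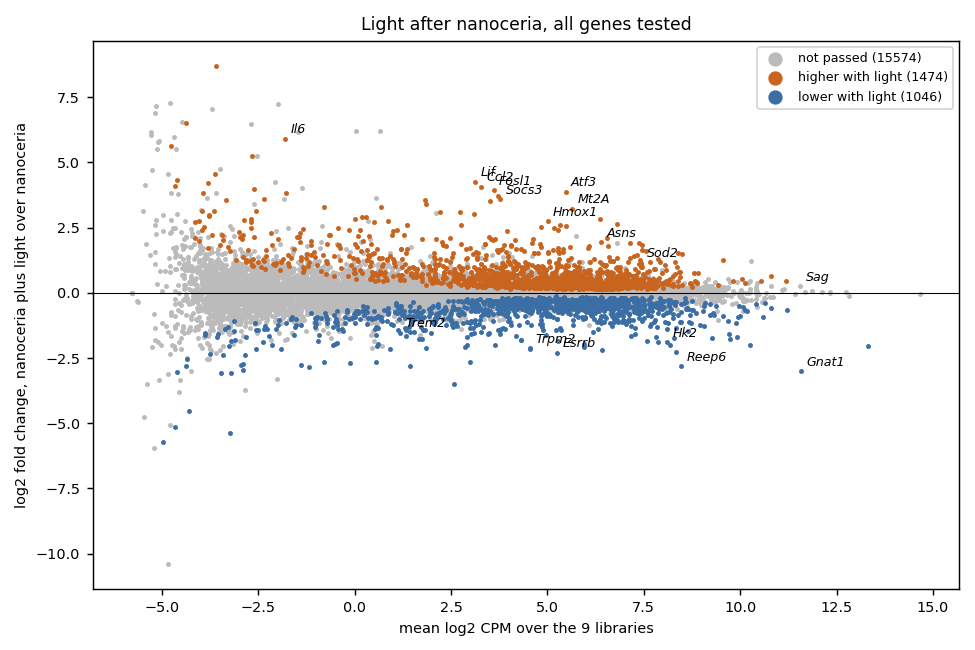
Log2 fold change with light after nanoceria (y axis) against mean log2 CPM over the 9 libraries (x axis), 1 point per gene tested, with 1474 genes that rose in orange, 1046 that fell in blue and the rest in grey. Abundant rod genes such as Gnat1 and Reep6 lie low on the right, while Lif, Ccl2, Fosl1 and Atf3 lie high.

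Among called genes with a mean log2 CPM of at least 1, the 12 highest changes belonged to the cytokines Lif and Clcf1, the chemokines Ccl2, Ccl7 and Cxcl10, the transcription factors Fosl1, Atf3 and Npas4, and Socs3, Ptx3, Gdf15 and Mt2A. The lowest included those of Gnat1, Reep6, Tmem116, Esrrb, Rcvrn, Susd3, Trpm2, L3mbtl1, Rgs22 and Glb1l2. Each of these genes is taken up with its group. Values of a gene are CPM, its counts relative to library size scaled with the TMM factors of edgeR, in the order of nanoceria replicates 1, 2, 3 and 5 and of light replicates 1 to 5. A bare value in parentheses after a gene that rose or fell is its log2 fold change.

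Genes of the rod cascade fell together. Of 20 tested members, 0 rose and 17 fell, with a median log2 fold change of -1.13. In 17 of 20, each light library lay below each nanoceria library, against 5.54% of all genes tested. Rod genes took 4.6% to 6.62% of all counts without light and 0.619% to 2.67% with it. In whole retina, fewer rods and less RNA per rod cannot be told apart. With the 9 libraries fitted alone, 8 of the 20 fell. Leaving out 1 of those 9 in turn from the fit of all libraries gave 12 to 19 that fell.

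Gnat1, the rod transducin alpha subunit, was at 8410.0, 10207, 10699 and 14765 CPM with nanoceria. With light it was at 783, 1533, 1872, 303 and 2360.0 CPM, 8.04-fold lower (log2 fold change -3.01, SE 0.44, adjusted p = 1.93e-05). Every light library was below every nanoceria library, and the spread among light libraries, from replicate 4 to replicate 5, was wide. Gnb1, the transducin beta subunit, fell by 2.01 on the log2 scale (SE 0.29, adjusted p = 1.6e-05). Rcvrn, recoverin, which binds calcium and restrains the kinase of the visual pigment, was at 746, 822, 736 and 1119 CPM and then 135, 283, 139, 56.7 and 268 CPM (log2 fold change -2.28, SE 0.37, adjusted p = 6.69e-05).

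Further down the cascade, the channel subunit Cngb1 was at 598, 618, 583 and 856 CPM without and 141, 314, 169, 69.5 and 301 CPM with light (log2 fold change -1.74, SE 0.30, adjusted p = 0.000203). The exchanger Slc24a1, which removes calcium from the outer segment, fell (log2 fold change -1.75, SE 0.30, adjusted p = 0.000195). Of the complex that turns transducin off, Gnb5 (log2 fold change -1.06, SE 0.23, adjusted p = 0.00188) and the anchor Rgs9bp (log2 fold change -1.25, SE 0.27, adjusted p = 0.0019) fell. The 3 members that did not pass were Gngt1 at -1.02 (adjusted p = 0.0686), Guca1b, a calcium sensor of guanylate cyclase, at -0.71 (adjusted p = 0.0966) and Sag. Gngt1 passed without light replicate 2 (adjusted p = 0.0261) or 5 (0.0279), and Guca1b without light replicate 5 (0.0361). Sag, rod arrestin, which shuts off the light-activated pigment, was at 2448, 3073, 2679.5 and 3249 CPM with nanoceria and 3413, 4287, 3657, 1239 and 4566 CPM with light (log2 fold change 0.26, SE 0.26, adjusted p = 0.589). All but 1 of the light libraries were above every nanoceria library for Sag, and replicate 4 was below all of them.

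CRX is a homeobox factor that drives photoreceptor genes and binds the motif TAATCC. In RefSeq promoter windows of build GRCr8, from 250 bases before to 50 after the gene's start, the motif was found on either strand in 5 of 15 rod genes with a window (33.3%) and in 5.52% of 11872 tested genes. Of called genes at least 2-fold lower, 10.6% of 142 with a window held it, and of those at least 2-fold higher 9% of 211. A match is a description of the sequence and not a binding site. Cngb1 and Gucy2f, a guanylate cyclase of photoreceptors that also fell, hold 2 matches each and are shown from 180 bases before the start to 50 after it, in capitals where TAATCC or its complement GGATTA lies. The Cngb1 stretch is chr19:9732466-9732695 (plus strand) and that of Gucy2f is chrX:110604968-110605197 (minus strand), both written 5′ to 3′ along the gene. None of these matches overlaps a match to another motif searched.
Cngb1: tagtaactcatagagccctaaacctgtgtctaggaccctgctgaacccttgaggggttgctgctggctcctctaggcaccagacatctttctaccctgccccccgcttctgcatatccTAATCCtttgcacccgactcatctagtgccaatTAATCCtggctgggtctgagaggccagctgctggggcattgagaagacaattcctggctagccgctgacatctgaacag
Gucy2f: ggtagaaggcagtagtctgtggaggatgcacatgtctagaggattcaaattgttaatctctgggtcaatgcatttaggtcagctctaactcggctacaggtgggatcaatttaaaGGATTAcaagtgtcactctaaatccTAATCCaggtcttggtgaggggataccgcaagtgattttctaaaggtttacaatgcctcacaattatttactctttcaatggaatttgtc
Gucy2f itself was at 53, 48.2, 44.9 and 49.9 CPM without and 21.4, 26.2, 18.4, 6.79 and 35.7 CPM with light (log2 fold change -1.17, SE 0.36, adjusted p = 0.0252). It did not pass without any 1 of nanoceria replicates 1, 2 and 5 or light replicates 3 and 4 (adjusted p = 0.0534 to 0.0662), nor with the 9 libraries alone (0.0919).

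The outer segment is a stack of discs that holds the cascade. Of 15 tested members, 1 rose and 9 fell among disc and outer segment genes (median -0.86). Reep6, which shapes the endoplasmic reticulum of rods and moves guanylate cyclases, was at 947, 1148, 1068 and 1275 CPM and with light at 107, 222, 154, 63.5 and 241 CPM (log2 fold change -2.82, SE 0.32, adjusted p = 6.45e-07). Unc119, a carrier of lipid-modified transducin, fell (log2 fold change -1.26, SE 0.25, adjusted p = 0.000797), as did the disc rim protein Rom1 (log2 fold change -1.58, SE 0.33, adjusted p = 0.00126) and the phosphodiesterase chaperone Aipl1 (log2 fold change -1.45, SE 0.31, adjusted p = 0.00162). All light libraries were below all nanoceria libraries in these 4 genes. Fscn2, an actin-bundling protein of photoreceptors, was at 69, 65.2, 59.4 and 63.6 CPM without light and 134, 143, 161, 41 and 182 CPM with it (log2 fold change 1.04, SE 0.25, adjusted p = 0.0042). It thus rose in 4 of 5 light libraries, with replicate 4 below the nanoceria range, and did not pass with the 9 libraries alone (adjusted p = 0.125), where 5 of the list fell and 0 rose. Prom1, prominin, which forms new discs, did not pass (0.42, adjusted p = 0.194). The number that rose was 2 without light replicate 1 and 3 without light replicate 4.

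The connecting cilium carries proteins into the outer segment, and 2 of its 18 tested genes rose while 5 fell (median -0.07). Those are 11.1% and 27.8% of the list, against 8.15% and 5.78% of all genes tested. Nphp4, nephrocystin 4, a protein of the cilium base, was at 35.9, 34.8, 33.3 and 32.9 CPM and with light at 123, 108, 119, 98.2 and 116 CPM. It rose 3.3-fold (log2 fold change 1.72, SE 0.14, adjusted p = 4.58e-09) with no overlap of the groups, light replicate 4 included. Kcnab2, which overlaps Nphp4 in the annotation, did not pass (0.23, adjusted p = 0.389). Mak, a kinase of the ciliary axoneme, rose (log2 fold change 0.86, SE 0.19, adjusted p = 0.00218) but not with the 9 libraries alone (adjusted p = 0.104). Cc2d2a, a protein of the cilium's transition zone, was at 184, 183, 181 and 128 CPM and then 79.6, 97.4, 82.1, 37.5 and 95.3 CPM (log2 fold change -1.11, SE 0.26, adjusted p = 0.00434). Bbs2 and Ttc8 of the cargo complex BBSome (-0.56 and -0.50), the motor Kif17 (-0.90) and the small GTPase Arl3 (-0.77) were the others that fell. With the 9 libraries alone 1 of the list rose and 3 fell.

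Transcription factors of photoreceptors fell in 7 of 14 cases and rose in 1 (median -0.52). Nrl, the leucine zipper factor that sets rod identity, was at 382, 503, 390.0 and 447 CPM and with light at 90.7, 186, 113, 30.9 and 181 CPM (log2 fold change -1.84, SE 0.35, adjusted p = 0.000577). Its partner Nr2e3 fell (log2 fold change -1.51, SE 0.30, adjusted p = 0.00075), and so did Esrrb, an orphan nuclear receptor of rods, from 85.2, 72.1, 116 and 135 CPM to 13.6, 29.9, 32.2, 6.4 and 21.7 CPM (log2 fold change -2.30, SE 0.44, adjusted p = 0.000628). Crx fell less (log2 fold change -0.68, SE 0.21, adjusted p = 0.0319), and not without any 1 of nanoceria replicates 2, 3 and 5 or light replicates 1, 3 and 4 (adjusted p = 0.0528 to 0.0959), with the 9 libraries alone (0.139) or with library size alone. Neurod1, a factor that maintains photoreceptors, was the member that rose, from 143, 154, 133 and 131 CPM to 222, 248, 283, 193 and 283 CPM (log2 fold change 0.81, SE 0.12, adjusted p = 3.55e-05), and its groups did not overlap.

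**Figure D2:**
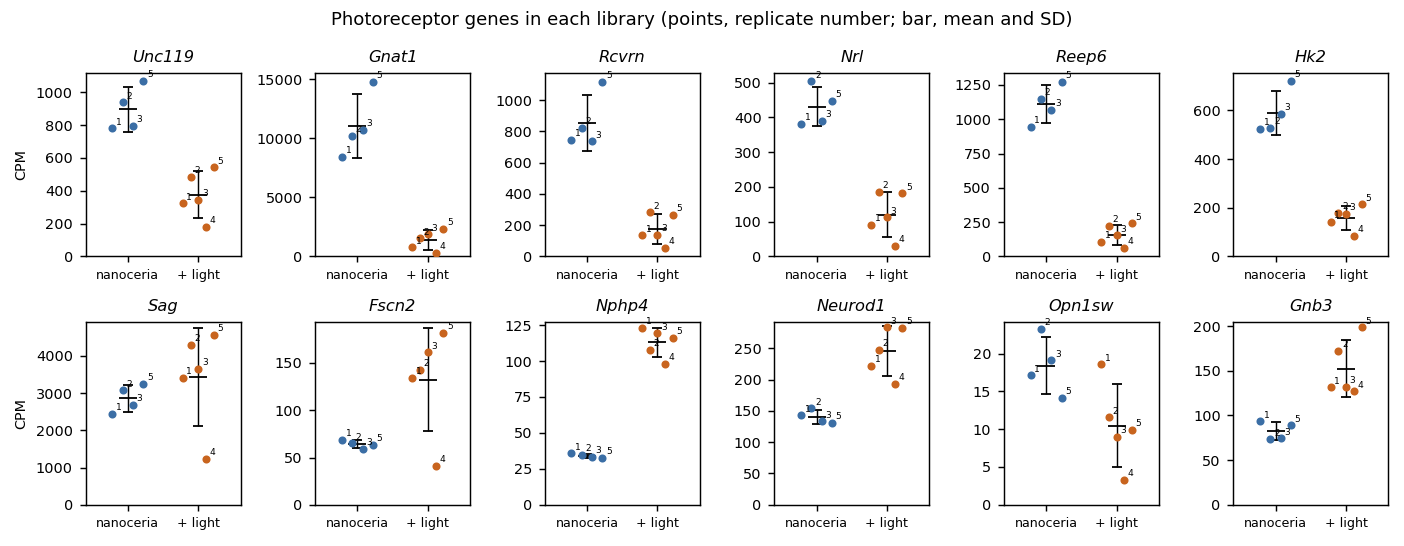
CPM (y axis, from 0) of 12 genes in the 4 nanoceria libraries (blue) and the 5 nanoceria plus light libraries (orange), with replicate numbers beside the points and mean and SD as bars. Unc119, Gnat1, Rcvrn, Nrl, Reep6 and Hk2 are lower in each light library, Nphp4, Neurod1 and Gnb3 are higher in each, and light replicate 4 is the lowest light library in each of the 12 panels.

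Cones, which serve bright and color vision, use related proteins. Of 12 tested members, 1 rose and 4 fell (median -0.66). Pde6h, the inhibitory subunit of the cone phosphodiesterase, was at 6.12, 7.03, 7.32 and 8.24 CPM and with light at 2.12, 2.4, 1.97, 0.585 and 3.45 CPM (log2 fold change -1.77, SE 0.38, adjusted p = 0.00183). Gnb3, the beta subunit of cone transducin, was at 93.5, 73.1, 74.2 and 89.1 CPM and then 131, 172, 132, 127 and 199 CPM (log2 fold change 0.89, SE 0.16, adjusted p = 0.000294). Gnat2, the cone transducin alpha subunit (-0.70), and the channel subunits Cnga3 (-0.99) and Cngb3 (-0.62) also fell. For Pde6h and Gnb3 the groups lay apart, for Pde6h with light lower and for Gnb3 with light higher. The short-wave opsin Opn1sw was at 17.1, 23.2, 19.1 and 14.2 CPM without and 18.6, 11.6, 8.99, 3.33 and 9.92 CPM with light, and did not pass (log2 fold change -0.81, SE 0.40, adjusted p = 0.193). Cone arrestin Arr3 did not pass either (log2 fold change -1.002, SE 0.35, adjusted p = 0.0519), except without light replicate 5 (adjusted p = 0.0131), with the size factors of DESeq2 and in its Wald test. The number of cone genes that fell was 2 without light replicate 3 and 1 with the 9 libraries alone.

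In the visual cycle, which regenerates the chromophore of opsins, 5 of 14 genes fell and none rose (median -0.47). Rbp3, the retinoid carrier that photoreceptors secrete, was at 1757, 1979, 1908 and 2379 CPM and with light at 475, 833, 659.9, 217 and 885 CPM (log2 fold change -1.71, SE 0.29, adjusted p = 0.000172). Rdh12, a retinol dehydrogenase of photoreceptors, fell (log2 fold change -1.02, SE 0.25, adjusted p = 0.00528), though not with the 9 libraries alone (adjusted p = 0.0873). The others that fell were Lrat, which esterifies retinol (-0.73), and the dehydrogenases Rdh5 (-0.98) and Rdh11 (-0.84). Rpe65, the isomerase of the pigment epithelium, did not pass (log2 fold change -0.51, SE 0.34, adjusted p = 0.37). Without nanoceria replicate 5 or light replicate 4 the number that fell was 3, 1 rose without light replicate 4, and the number that fell with the 9 libraries alone was 2.

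At the ribbon synapse, where photoreceptors signal to bipolar cells, 6 of 15 genes fell and none rose (median -0.43). Slc17a7, the vesicular glutamate transporter, was at 1488, 1564, 1319.8 and 1715 CPM and with light at 546, 870.5, 662, 410.0 and 932 CPM (log2 fold change -1.15, SE 0.19, adjusted p = 6.73e-05). Cabp4, which tunes the calcium channel of the synapse, fell (log2 fold change -1.08, SE 0.28, adjusted p = 0.00842), though not with the 9 libraries alone (adjusted p = 0.109). Of the genes that overlap Cabp4 in the annotation, Gpr152 fell (-1.12, adjusted p = 0.049) and Tmem134 did not pass (0.03, adjusted p = 0.953). The number of synapse genes that fell was 3 without nanoceria replicate 1 or 2, 2 without light replicate 4 and 1 with the 9 libraries alone.

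Few markers of the inner retina were called, 2 of 15 for bipolar cells being close to the 13.9% of all genes. Of the 15 bipolar cell genes, the calcium-binding Cabp5 rose (log2 fold change 0.95, SE 0.20, adjusted p = 0.00181) and Lrit3, which in the retina is also made by photoreceptors, fell (log2 fold change -1.09, SE 0.29, adjusted p = 0.0107), the latter not with the 9 libraries alone (adjusted p = 0.11). Of 15 amacrine and horizontal cell genes, Lhx1, a factor of horizontal cells, fell (log2 fold change -0.68, SE 0.20, adjusted p = 0.0175), but not without nanoceria replicate 1 (0.0698) or light replicate 1 (0.0513) or with the 9 libraries alone (0.0621). None of 13 ganglion cell genes passed, in edgeR or in the Wald test of DESeq2, and 0 had an unadjusted p under 0.05. Medians were 0.07, 0.08 and 0.04. Leaving out light replicate 1 or 2 gave 2 bipolar genes that rose, and without light replicate 2 2 bipolar genes fell.

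Müller glia hold both a steady state and a reactive program. Of 16 genes of the steady state (median -0.23), 2 rose (12.5%) and 3 fell (18.8%), against 8.15% and 5.78% of all genes tested. Hes5, a Notch target, was at 1.56, 1.71, 1.72 and 1.05 CPM and with light at 0.28, 0.665, 0.388, 0.182 and 0.37 CPM (log2 fold change -2.002, SE 0.37, adjusted p = 0.000345). Pank4, which overlaps Hes5 in the annotation, fell by 0.40 on the log2 scale (adjusted p = 0.0162). Glul, glutamine synthetase, which clears synaptic glutamate, fell (log2 fold change -0.60, SE 0.14, adjusted p = 0.00424) and Sox9, a glial transcription factor, rose (log2 fold change 0.90, SE 0.20, adjusted p = 0.00254), neither with the 9 libraries alone (adjusted p = 0.0635 and 0.104). The others called were Clu, the chaperone clusterin (0.65), which rose, and the receptor Gpr37 (-0.99), which fell. The number that rose was 1 without any 1 of nanoceria replicates 2, 3 and 5 or light replicate 4 and 0 with the 9 libraries alone. The number that fell was 6 without light replicate 2 and 1 with the 9 libraries alone.

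Of 16 genes of reactive glia, 8 rose and none fell (median 0.79). Cebpd, a transcription factor of inflamed glia, was at 25.9, 16.2, 25.2 and 33.9 CPM and with light at 61.4, 68.7, 88.1, 121 and 87.4 CPM (log2 fold change 1.75, SE 0.26, adjusted p = 2.38e-05). Timp1, an inhibitor of matrix proteases, was at 21.1, 17.4, 17.2 and 20.4 CPM and then 42, 48.7, 64, 82.9 and 59.1 CPM (log2 fold change 1.64, SE 0.25, adjusted p = 2.81e-05). Both groups lay apart for both genes. Gfap, the filament protein by which reactive glia are usually recognised, was at 238, 127, 131 and 265 CPM without and 288, 489, 265, 216 and 486 CPM with light and did not pass (log2 fold change 0.87, SE 0.54, adjusted p = 0.326). Its groups overlapped. Vim, another filament gene, did not pass (log2 fold change 0.27, SE 0.20, adjusted p = 0.415). Lcn2, lipocalin 2, spread from 5.82 to 146 CPM among the nanoceria libraries and did not pass (log2 fold change 1.92, SE 0.71, adjusted p = 0.073), except without nanoceria replicate 1 (adjusted p = 0.041) and in the Wald test of DESeq2. With the 9 libraries alone 5 of the list rose.

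The LIF pathway rose from ligand to feedback inhibitor, with 11 of 19 members higher and none lower (median 0.99). Among ligands, Lif was at 2.5, 1.44, 1.86 and 1.56 CPM and with light at 17.1, 17.6, 44, 64.3 and 32.8 CPM, 19.1-fold higher (log2 fold change 4.26, SE 0.51, adjusted p = 1.58e-06). Clcf1, a related cytokine, was at 3.34, 2.77, 3.22 and 2.68 CPM and then 9.9, 10.2, 25.9, 55.3 and 21.1 CPM (log2 fold change 3.03, SE 0.45, adjusted p = 2.41e-05). Light replicates 3, 4 and 5 were the highest in both, replicate 4 highest of all. Il6 was at 0.0355, 0.0118, 0.0284 and 0.0363 CPM without light, near the limit of detection, and 0.435, 0.559, 1.23, 4.65 and 1.99 CPM with it (adjusted p = 3.45e-05). Among receptors, Osmr, the receptor of oncostatin M, rose (log2 fold change 2.05, SE 0.27, adjusted p = 4.52e-06), as did Il6st, the shared subunit gp130 (log2 fold change 0.99, SE 0.09, adjusted p = 3.27e-08).

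Stat3, the transcription factor of the pathway, was at 202, 142, 204 and 191 CPM and with light at 492, 484, 629, 499 and 591 CPM (log2 fold change 1.54, SE 0.14, adjusted p = 2.44e-08). Socs3, which STAT3 induces and which blocks gp130, was at 4.58, 2.52, 2.91 and 4 CPM and then 29.2, 32.6, 49.7, 52.1 and 48.4 CPM (log2 fold change 3.60, SE 0.28, adjusted p = 2.07e-09). Groups lay apart for all these genes, and light libraries differed less in Stat3 and Il6st than in the ligands. In 11 of the 19 members every light library was above every nanoceria library, against 7.11% of all genes tested.

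Endothelin 2 and FGF2 are other signals of the damaged retina. Edn2, which encodes endothelin 2, was at 0.414, 0.26, 0.265 and 0.726 CPM and with light at 2.37, 3.95, 2.6, 2.35 and 4.51 CPM (log2 fold change 2.91, SE 0.44, adjusted p = 2.93e-05), the 1 gene of 7 in the endothelin list that rose. Ednra, a receptor of endothelins, was at 16.5, 21.9, 18.4 and 21 CPM and then 13.5, 11.1, 17.9, 12.9 and 9.25 CPM (log2 fold change -0.59, SE 0.17, adjusted p = 0.0184). It fell, as did the processing enzyme Ece2 (-0.47). Ednra did not pass without nanoceria replicate 2 (0.0722) or 5 (0.0585), without light replicate 5 (0.0534) or with the 9 libraries alone (adjusted p = 0.0902). The endothelin genes that fell numbered 0 without nanoceria replicate 5 and 1 without any 1 of nanoceria replicates 1 and 2 and light replicates 1, 3, 4 and 5. Of 16 genes of FGF signals and their feedback, 4 rose (1 with the 9 libraries alone) and 2 fell (0 with the 9 libraries alone or without nanoceria replicate 5, and 1 without nanoceria replicate 2 or light replicate 4). Those that rose were Fgf2, the transcription factor Etv4 (0.66) and the feedback inhibitors Spry2 (0.83) and Spry4 (0.51), and those that fell were the receptor Fgfr2 (-0.43) and the phosphatase Dusp4 (-0.48). Fgf2, a growth factor that protects photoreceptors, was at 3.17, 1.73, 2.2 and 2.56 CPM and then 8.35, 9.34, 8.05, 8.24 and 9.54 CPM (log2 fold change 1.85, SE 0.19, adjusted p = 9.18e-08). Nudt6, which overlaps Fgf2 on the other strand, rose by 0.48 (adjusted p = 0.00212), and without a stated strand setting reads of the pair cannot be told apart.

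**Figure D3:**
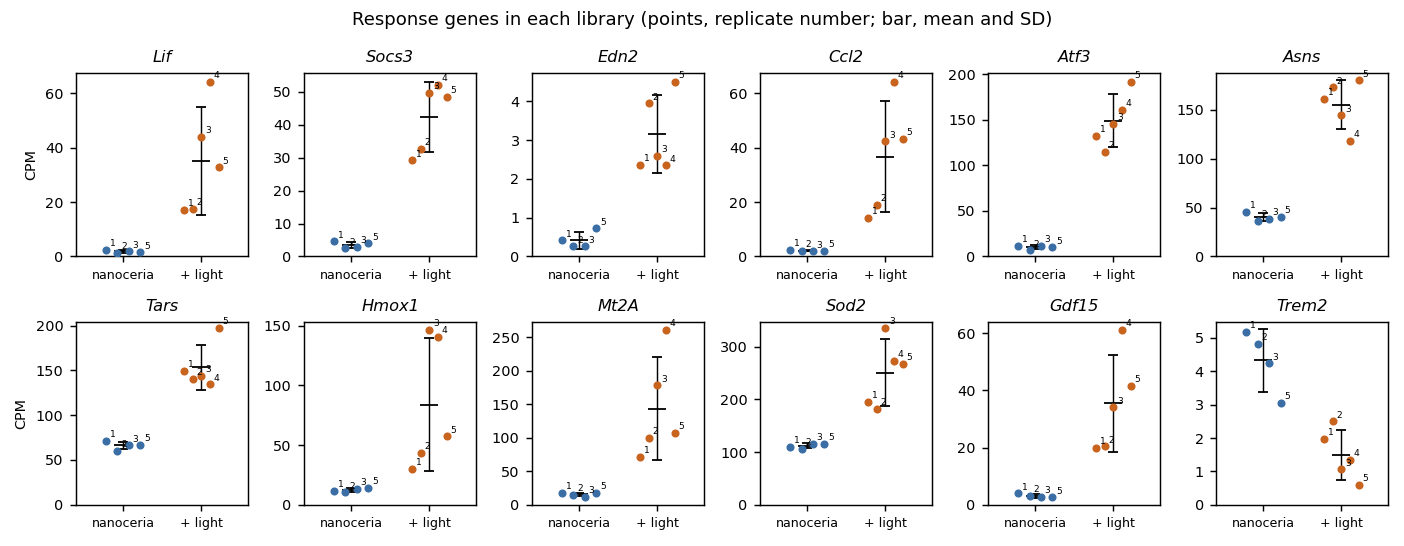
CPM (y axis, from 0) of 12 response genes in the 4 nanoceria libraries (blue) and the 5 nanoceria plus light libraries (orange), with replicate numbers beside the points and mean and SD as bars. The first 11 genes are higher in each light library than in any nanoceria library, and Trem2 is lower in each.

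Chemokines rose next to these cytokines. Of 20 chemokines and receptors, 9 rose and 1 fell (median 0.56). Ccl2, which attracts monocytes, was at 2.53, 2.16, 1.92 and 2.11 CPM and with light at 14.1, 19, 42.4, 64.2 and 43.3 CPM (log2 fold change 4.07, SE 0.46, adjusted p = 6.05e-07). Ccl7, a neighbour with the same receptor, was at 0.734, 1.33, 1.12 and 1.03 CPM and then 3.45, 6.5, 17, 18.3 and 11.3 CPM (log2 fold change 3.42, SE 0.48, adjusted p = 1.36e-05). Light replicates 1 and 2 had the lowest light levels of both. Ccl3, made by activated microglia and other leukocytes, rose (log2 fold change 3.30, SE 0.36, adjusted p = 3.6e-07). Cxcl10, induced by interferons, was at 4.41, 3.36, 3.12 and 2.9 CPM and then 25.4, 24.2, 68.4, 27.7 and 78 CPM (log2 fold change 3.70, SE 0.58, adjusted p = 4.52e-05), with replicates 3 and 5 highest. The 1 member that fell, Cxcl12, which holds CXCR4-bearing cells in place (-0.76), did not do so without nanoceria replicate 2 or light replicate 4 or with the 9 libraries alone.

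Of 21 genes of TNF, interleukin 1 and NF-kB signals, 9 rose and 1 fell (median 0.56). Icam1, an adhesion molecule for leukocytes, was at 18, 15.7, 17.7 and 20.3 CPM and with light at 42.3, 42.2, 68.6, 53.7 and 60.5 CPM (log2 fold change 1.58, SE 0.19, adjusted p = 1.81e-06). Relb, an NF-kB subunit, rose (log2 fold change 1.53, SE 0.20, adjusted p = 4.76e-06). The member that fell was Tnfaip3, the enzyme A20 that dampens NF-kB, from 85.6, 86.7, 73.2 and 97.8 CPM to 36, 52.8, 45.9, 32.1 and 60.6 CPM (log2 fold change -0.92, SE 0.15, adjusted p = 0.000116). Tnfaip3 and Relb thus moved in opposite directions, each with groups that lay apart.

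Of 25 AP-1 and immediate early genes, 16 rose and none fell (median 1.00). Fosl1, an AP-1 subunit, was at 3.12, 2.37, 2.28 and 3.54 CPM and with light at 19.2, 27.3, 61.7, 57.3 and 52.1 CPM (log2 fold change 3.94, SE 0.37, adjusted p = 3.27e-08). Npas4, which neurons switch on upon calcium entry, rose (log2 fold change 3.09, SE 0.35, adjusted p = 5.6e-07). Fos, whose product pairs with JUN, was at 14.3, 16.1, 22.6 and 14.8 CPM and then 40.2, 40, 118, 237 and 82.7 CPM (log2 fold change 2.61, SE 0.45, adjusted p = 0.000152), and Jun rose as well (log2 fold change 1.82, SE 0.25, adjusted p = 7.12e-06). Of genes at least 2-fold higher, 12.8% of 211 with a promoter window held the AP-1 motif TGANTCA, against 5.55% of all 11872, and 12.8% held the STAT motif TTCNNNGAA, against 6.84%. Both motifs read the same on either strand. The STAT motif was in 0 of 13 windows of the LIF list, and the AP-1 motif in 0 of 17 of the AP-1 and immediate early list.

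Interferon-stimulated genes rose in 11 of 22 cases and fell in none (median 0.80). Irf9, the DNA-binding part of the complex that answers type I interferons, was at 21.3, 18.7, 23.7 and 24.6 CPM and with light at 58.2, 55.8, 76.5, 50.8 and 77.2 CPM (log2 fold change 1.53, SE 0.15, adjusted p = 3.59e-08). Rsad2, the antiviral enzyme viperin, was at 30.3, 19.2, 38.9 and 29.9 CPM and then 107, 151, 332, 137 and 325 CPM (log2 fold change 2.83, SE 0.43, adjusted p = 2.93e-05). Of 12 genes of MHC and antigen processing, Ciita, the switch of MHC class II genes, was the 1 that fell, from 25.5, 25.5, 19.4 and 26.4 CPM to 9.98, 10.4, 8.48, 5.69 and 12.2 CPM (log2 fold change -1.37, SE 0.20, adjusted p = 1.46e-05). The 1 that rose, the peptide transporter Tap1 (0.89), did not do so without nanoceria replicate 2, and the number that rose was 2 without nanoceria replicate 3 or light replicate 2.

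The integrated stress response halts general translation and, through the factor ATF4, raises genes of amino acid supply. Of 19 of its genes, 14 rose and 1 fell (median 0.64). With the 9 libraries alone 8 rose. Leaving out 1 of those 9 in turn from the fit of all libraries gave 11 to 13, and the size factors of DESeq2 gave 12. Atf3, a transcription factor downstream of ATF4, was at 11.9, 6.76, 11.9 and 10 CPM and with light at 132, 115, 146, 161 and 192 CPM, 14.7-fold higher (log2 fold change 3.88, SE 0.31, adjusted p = 2.5e-09). Asns, asparagine synthetase, was at 45.5, 36.2, 38.2 and 40.3 CPM and then 161, 173, 144, 118 and 179.8 CPM (log2 fold change 1.95, SE 0.13, adjusted p = 1.25e-10). Its light libraries lay close together, and replicate 4, the lowest in rod genes, was also the lowest here.

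Gdf15, a hormone released by stressed cells, was at 3.96, 3.1, 2.76 and 2.63 CPM and with light at 20, 20.4, 34.1, 61.2 and 41.6 CPM (log2 fold change 3.51, SE 0.31, adjusted p = 8.17e-09). Sesn2, which restrains the growth kinase mTORC1, rose (log2 fold change 1.28, SE 0.13, adjusted p = 1.01e-07), and so did Trib3, a pseudokinase that holds back ATF4 (log2 fold change 1.69, SE 0.31, adjusted p = 0.000345), and Chac1, which breaks down glutathione (log2 fold change 1.01, SE 0.19, adjusted p = 0.000375). Ddit4, another restraint on mTORC1, was the member that fell, from 102, 108, 95.7 and 113 CPM to 60.8, 81.2, 62.9, 71.1 and 84.1 CPM (log2 fold change -0.54, SE 0.11, adjusted p = 0.00141).

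Aminoacyl-tRNA synthetases load amino acids onto tRNA. Of 21 cytosolic ones, 14 rose and none fell (median 0.45), where 8.15% of all genes rose. In 14 every light library was above every nanoceria library, against 7.11% of all genes. Tars, the threonyl enzyme, was at 71.2, 60.5, 66.5 and 66.8 CPM and with light at 149, 141, 144, 135 and 198 CPM (log2 fold change 1.21, SE 0.11, adjusted p = 1.21e-08). Mars, the methionyl enzyme, was at 89.1, 81.8, 82.4 and 87 CPM and then 159, 162, 136, 128 and 185 CPM (log2 fold change 0.86, SE 0.09, adjusted p = 3.58e-07). Yars, the tyrosyl enzyme (log2 fold change 0.80, SE 0.10, adjusted p = 4.91e-06), and Aars, the alanyl enzyme (log2 fold change 0.79, SE 0.12, adjusted p = 5.57e-05), rose too. Mthfd2, a mitochondrial enzyme of the folate cycle, was at 10.2, 7.44, 8.18 and 7.97 CPM and then 32.8, 27, 18.8, 29.7 and 40.6 CPM (log2 fold change 1.82, SE 0.28, adjusted p = 3.25e-05), and with it Shmt2 (0.71), Aldh18a1 (1.00) and Pycr1 (0.97) rose among 12 genes of serine, proline and folate synthesis, and none fell. In that list 2 fell without nanoceria replicate 3 or light replicate 2.

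ATF4 pairs with C/EBP factors on the motif TGATGNAA. It was found on either strand of the promoter window in 7 of 17 synthetase genes with a window (41.2%), in 5 of 16 genes of the integrated stress response (31.2%) and in 2.26% of all 11872. Those 12 genes were Aars, Cars, Iars, Mars, Nars, Tars, Yars, Trib3, Chac1, Nupr1, Fgf21 and Slc7a1. Of called genes at least 2-fold higher, 4.27% of 211 held the motif, and of those at least 2-fold lower 3.52% of 142. The 4 synthetases with a match and the largest change, and Chac1, are shown from 180 bases before the start to 50 after, with the matches in capitals, to show that the same 8 bases recur at different distances. The stretches are chr2:62114753-62114982 and chr7:65023704-65023933 on the minus strand and chr5:146819983-146820212, chr19:55908302-55908531 and chr3:126795951-126796180 on the plus strand of GRCr8, written 5′ to 3′ along the gene.
Tars: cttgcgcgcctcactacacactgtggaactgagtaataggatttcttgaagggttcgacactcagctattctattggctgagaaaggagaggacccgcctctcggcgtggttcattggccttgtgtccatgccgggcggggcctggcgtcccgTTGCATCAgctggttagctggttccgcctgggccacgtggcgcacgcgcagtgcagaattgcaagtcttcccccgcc
Mars: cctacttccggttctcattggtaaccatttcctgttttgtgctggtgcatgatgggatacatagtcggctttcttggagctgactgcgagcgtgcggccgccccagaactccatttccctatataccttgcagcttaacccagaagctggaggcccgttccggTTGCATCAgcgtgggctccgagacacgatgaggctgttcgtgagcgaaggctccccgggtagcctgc
Yars: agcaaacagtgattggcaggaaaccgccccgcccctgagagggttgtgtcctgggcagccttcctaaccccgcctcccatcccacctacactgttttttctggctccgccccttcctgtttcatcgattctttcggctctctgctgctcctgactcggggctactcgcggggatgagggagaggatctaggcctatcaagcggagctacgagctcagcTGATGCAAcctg
Aars: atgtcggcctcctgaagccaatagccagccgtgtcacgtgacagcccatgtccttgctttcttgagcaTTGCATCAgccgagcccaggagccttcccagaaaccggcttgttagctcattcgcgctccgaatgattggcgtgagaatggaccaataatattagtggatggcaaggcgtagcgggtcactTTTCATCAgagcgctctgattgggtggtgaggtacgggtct
Chac1: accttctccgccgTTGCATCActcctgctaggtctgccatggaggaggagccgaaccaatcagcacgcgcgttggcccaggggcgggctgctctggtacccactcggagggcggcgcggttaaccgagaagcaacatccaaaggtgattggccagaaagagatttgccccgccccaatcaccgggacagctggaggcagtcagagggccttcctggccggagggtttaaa
Tars, Mars, Chac1 and Aars hold TTGCATCA, the reverse complement of the TGATGCAA in Yars, and Aars holds TTTCATCA as well. First bases lay at -27 in Tars, -17 in Mars, 39 in Yars, -112 and 10 in Aars and -167 in Chac1, counted from the start. None of these matches overlaps a match to another motif searched.

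Chaperones of the endoplasmic reticulum rose in 14 of 22 cases and fell in 1 (median 0.37). Hspa5, the chaperone BiP, was at 340.1, 321, 362 and 336 CPM and with light at 513, 457, 593, 788 and 514 CPM (log2 fold change 0.75, SE 0.14, adjusted p = 0.000463). Eif2ak3, the kinase PERK that senses unfolded protein, rose (log2 fold change 0.88, SE 0.13, adjusted p = 1.75e-05). Of 13 heat shock proteins 6 rose, led by Hsph1 (log2 fold change 0.93, SE 0.15, adjusted p = 9.27e-05), and none fell (median 0.34). The chaperones that rose numbered 9 without nanoceria replicate 1, 8 without nanoceria replicate 2, 7 without light replicate 4 and 6 with the 9 libraries alone. The member that fell, Sel1l, which helps to degrade misfolded protein (-0.37), did not do so without nanoceria replicate 2 or light replicate 4. The heat shock proteins that rose numbered 3 without nanoceria replicate 2 or light replicate 4 and 2 with the 9 libraries alone.

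**Figure D4:**
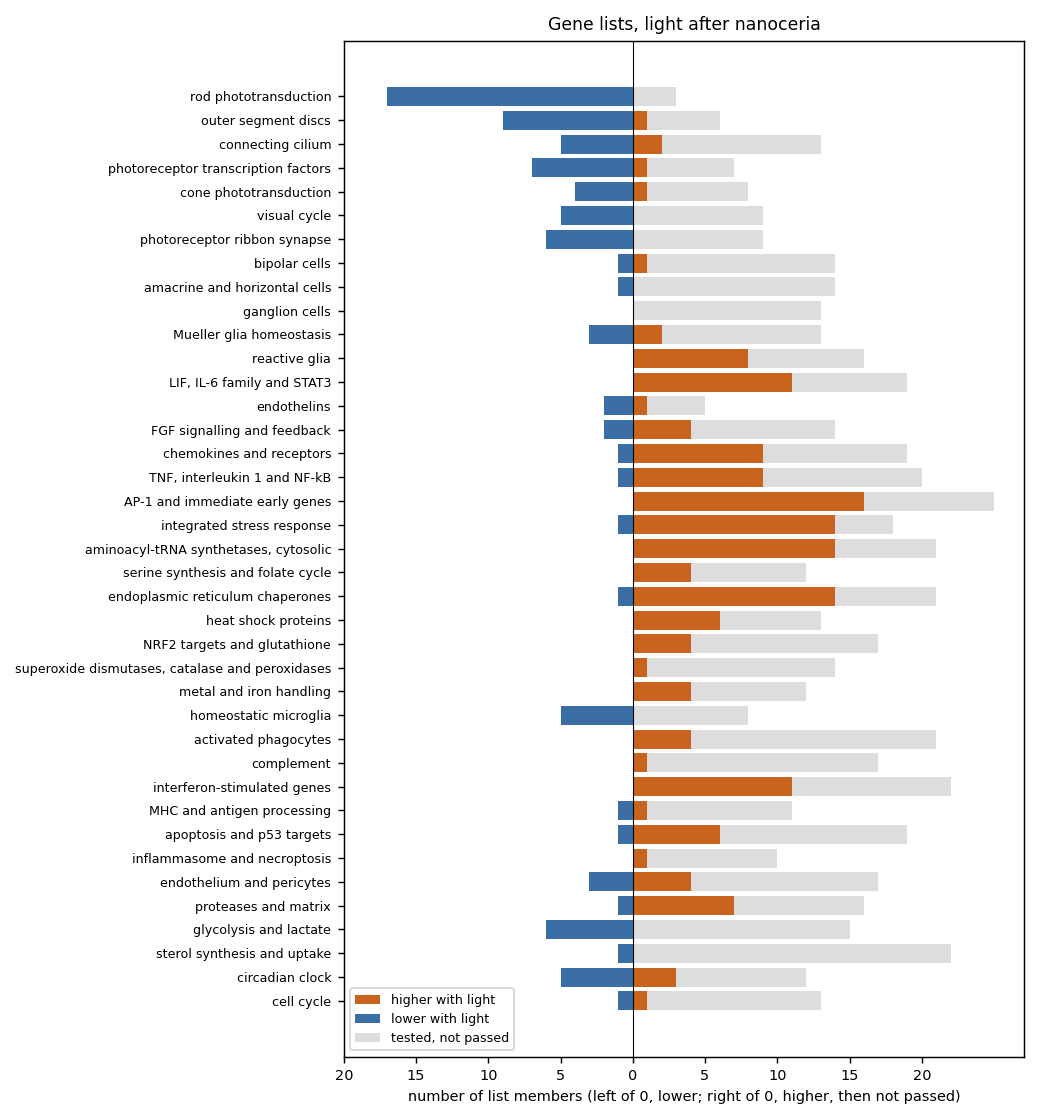
Number of members of 39 gene lists that fell with light after nanoceria (blue, left of 0), rose (orange, right of 0) or were tested and did not pass (grey). The photoreceptor lists at the top lie mostly to the left, the cytokine, stress and interferon lists mostly to the right, and none of 13 ganglion cell genes passed.

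Nanoceria act on reactive oxygen species, so the genes that handle them were described as a group. Of 17 genes listed as NRF2 targets or for glutathione, 4 rose and none fell (median 0.27). NRF2 is the factor that answers oxidants, and its own gene is on the list. Hmox1, heme oxygenase 1, was at 11.7, 10.5, 13.5 and 14.2 CPM and with light at 30.1, 43.8, 147, 141 and 57.2 CPM (log2 fold change 2.75, SE 0.41, adjusted p = 2.38e-05), with light replicates 3 and 4 far above the other 3. Nfe2l2, which encodes NRF2, rose (log2 fold change 0.79, SE 0.17, adjusted p = 0.00208), and so did Txnrd1, thioredoxin reductase (0.50), and Srxn1, sulfiredoxin (0.57). The number that rose was 2 without nanoceria replicate 1, without light replicate 3 or 4, and with the 9 libraries alone. Of 14 superoxide dismutases, catalase and peroxidases, the 1 that rose was Sod2, the mitochondrial superoxide dismutase, from 110.2, 106, 116 and 116 CPM to 195, 182, 336, 273 and 267 CPM (log2 fold change 1.16, SE 0.16, adjusted p = 1.3e-05). The cytosolic Sod1 (log2 fold change 0.06, SE 0.11, adjusted p = 0.772) and catalase, Cat (log2 fold change 0.09, SE 0.12, adjusted p = 0.72), did not pass.

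Metallothioneins bind zinc and copper. Mt2A was at 17.7, 14.6, 11.9 and 17.5 CPM and with light at 71.2, 99.8, 178, 261 and 108 CPM (log2 fold change 3.22, SE 0.35, adjusted p = 3.58e-07), and Mt1 was at 23.4, 26, 20.4 and 29.2 CPM and then 39.8, 51.5, 69.8, 106 and 40.5 CPM (log2 fold change 1.32, SE 0.26, adjusted p = 0.000872). Replicate 4 was the highest light library in both, and reads of these similar genes may be shared. Of 12 genes of metal and iron handling, 4 rose and none fell (median 0.20), the others being the transporters Slc39a14 (0.52) and Slc11a2 (0.63). The metal-responsive factor MTF1 binds the motifs TGCACNC and TGCGCNC, found on either strand in 7 of 8 of these genes with a window (87.5%) and in 35.02% of all 11872. Of called genes at least 2-fold higher, 29.4% of 211 held a match, and of those at least 2-fold lower 21.1% of 142. Among the metal and iron genes with a match, Mt1 and Mt2A rose, and Mt3, Mtf1, Slc30a1, Tfrc and Tf did not pass. Mt2A holds 4 matches, in capitals in its whole window of 300 bases, chr19:10838659-10838958 on the minus strand of GRCr8, shown because it rose most of the list. None of the 4 overlaps a match to another motif searched.
Mt2A: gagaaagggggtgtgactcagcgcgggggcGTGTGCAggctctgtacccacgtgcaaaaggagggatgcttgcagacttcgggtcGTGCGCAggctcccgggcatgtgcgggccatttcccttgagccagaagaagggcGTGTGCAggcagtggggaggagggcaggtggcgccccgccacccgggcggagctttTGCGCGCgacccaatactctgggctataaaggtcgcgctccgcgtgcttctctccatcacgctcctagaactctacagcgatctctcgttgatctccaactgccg

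Immune cells showed a mixed pattern. Of 13 genes of homeostatic microglia, 5 fell and none rose (median -0.57). P2ry12, the purine receptor that marks resting microglia, was at 6.38, 6.55, 5.74 and 4 CPM and with light at 2.38, 4.09, 1.91, 1.75 and 1.39 CPM (log2 fold change -1.30, SE 0.26, adjusted p = 0.000787), and the groups overlapped through light replicate 2. Trem2, a lipid receptor of phagocytes, was at 5.18, 4.82, 4.24 and 3.05 CPM and then 1.97, 2.51, 1.06, 1.34 and 0.603 CPM (log2 fold change -1.53, SE 0.32, adjusted p = 0.00141) without overlap. The other 3 were the receptors P2ry13 (-0.86) and Csf1r (-0.54) and the marker Tmem119 (-0.68). The number that fell was 3 without nanoceria replicate 2 or 3 or light replicate 5, 2 without light replicate 4 and 2 with the 9 libraries alone, and 8 in the Wald test of DESeq2. Cd84, a receptor of the SLAM family on leukocytes, was at 5.22, 4.34, 3.48 and 2.29 CPM and then 1.72, 1.8, 1.13, 1.34 and 1.21 CPM (log2 fold change -1.41, SE 0.25, adjusted p = 0.000231).

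Of 21 genes of activated phagocytes, 4 rose and none fell, with 10 changes above 0 and 11 below it. Spp1, osteopontin, was at 26.7, 21.6, 14.4 and 29.8 CPM and with light at 46.1, 65.8, 74.1, 116 and 73.3 CPM (log2 fold change 1.70, SE 0.24, adjusted p = 1.43e-05), and other retinal cells make it as well. The other 3 were the receptors Fcgr2b (1.29), Itgax (0.94) and Cd14 (1.02). The number that rose was 2 without any 1 of nanoceria replicates 1, 2 and 5 or light replicate 4, and with the 9 libraries alone. Of 17 complement genes 1 rose, Cfi, the complement inactivator (1.89), and none did without nanoceria replicate 1, 2 or 5 or light replicate 5 or with the 9 libraries alone, while 2 rose without light replicate 2. C3, the central complement protein, was at 318, 90.6, 124 and 43.4 CPM without and 57.7, 80.8, 69, 111 and 66.6 CPM with light, and did not pass (log2 fold change -0.90, SE 0.50, adjusted p = 0.261). Its highest library was nanoceria replicate 1, without light. C1qa, which starts the classical pathway, did not pass (log2 fold change -0.46, SE 0.24, adjusted p = 0.219).

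Markers of other cells were measured beside these lists. None of 7 T cell markers passed (1 had an unadjusted p under 0.05, 1 fell in the Wald test of DESeq2 or without nanoceria replicate 5, and 2 fell without light replicate 1). Their summed level was 23.9 to 42.9 CPM without and 13.7 to 32 CPM with light (2-sided exact permutation test, unadjusted p = 0.0317). The same test gave an unadjusted p of 0.825 for summed blood markers and 0.73 for granulocytes. It gave 0.397 for pigment epithelium and 0.603 for ciliary body, iris and muscle. Cd3e, which defines T cells, was at 1.47, 0.731, 3 and 0.763 CPM and 1.2, 0.771, 0.757, 0.783 and 0.652 CPM, low in every library of both groups. No marker of blood (3 tested), granulocytes (5), lens (18), pigment epithelium (7) or ciliary body, iris and muscle (7) passed in edgeR or in the Wald test, and 1 of them, of the pigment epithelium, had an unadjusted p under 0.05.

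Of 20 genes of apoptosis and p53 targets, 6 rose and 1 fell, Sesn1 (-0.30) (median 0.39), with 2 that fell without light replicate 2 or 5 and none with the 9 libraries alone. Pmaip1, the death-promoting NOXA, rose (log2 fold change 0.80, SE 0.12, adjusted p = 2.66e-05). Ripk1, a kinase of cell death and inflammation, was the 1 of 10 genes of inflammasomes and necroptosis that rose (0.61). In blood vessels, Kdr, the main VEGF receptor, fell (log2 fold change -0.72, SE 0.18, adjusted p = 0.00595) while Sele, E-selectin, which slows leukocytes on activated endothelium, was at 1.48, 1.27, 1.67 and 1.27 CPM and then 3.84, 3.14, 5.6, 3.46 and 4.37 CPM (log2 fold change 1.52, SE 0.38, adjusted p = 0.00679). Of 20 endothelial and pericyte genes 4 rose (20%) and 3 fell (15%), against 8.15% and 5.78% of all genes tested. Of the 20, 2 rose without nanoceria replicate 1, 2 rose and 1 fell without light replicate 4, 1 fell without nanoceria replicate 5, 5 fell without light replicate 1 or 2, and 6 fell in the Wald test of DESeq2. With the 9 libraries alone, 2 rose and 1 fell. The 7 were Sele, Flt1 (0.67), Vegfa (0.40) and Vcam1 (0.83), which rose, and Kdr, Tie1 (-0.77) and Pdgfrb (-0.48), which fell. Among 17 genes of proteases and matrix, 7 rose (4 with the 9 libraries alone), and Timp3, a matrix-bound protease inhibitor, fell (-0.43), though not without nanoceria replicate 2 or 5 or light replicate 5. Ptx3, a pattern recognition protein, was at 1.27, 0.955, 0.787 and 0.999 CPM and then 2.46, 10.6, 21, 16.2 and 9.31 CPM (log2 fold change 3.57, SE 0.77, adjusted p = 0.0019), with light replicate 1 far below the other 4. Adamts4, which cleaves proteoglycans, rose (log2 fold change 2.04, SE 0.24, adjusted p = 1.27e-06).

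The remaining genes with the lowest changes are in none of the lists. Trpm2, a calcium channel opened by oxidative stress, was at 54.6, 43.9, 54.2 and 60 CPM and with light at 10.7, 13, 13.1, 9.66 and 14.5 CPM (log2 fold change -2.12, SE 0.18, adjusted p = 6.79e-09). Glb1l2, a relative of beta-galactosidase, was at 125.64, 138, 142 and 153 CPM and then 31.1, 35.3, 34.1, 20.4 and 45.7 CPM (log2 fold change -2.07, SE 0.21, adjusted p = 8.16e-08). Tmem116, a membrane protein, fell (log2 fold change -2.63, SE 0.34, adjusted p = 4.02e-06), as did Susd3 (log2 fold change -2.15, SE 0.30, adjusted p = 1.15e-05). L3mbtl1, a reader of methylated histones, fell (log2 fold change -2.10, SE 0.30, adjusted p = 1.66e-05), and so did Rgs22, of the regulators of G protein signaling (log2 fold change -2.07, SE 0.25, adjusted p = 1.17e-06). Each light library was below each nanoceria library in these 6 genes.

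The light response after nanoceria was then set against the response after vehicle, to ask whether nanoceria altered it beyond the injection. For that difference, 415 of 18094 genes had an unadjusted p under 0.05 in edgeR, below the share of 0.05 that chance alone gives. No gene passed in edgeR (0%), and the Wald test of DESeq2 called 1. This does not show that the responses are alike. The response after vehicle lay at -3.55 for Gnat1, 4.09 for Lif, 2.14 for Asns and 2.90 for Hmox1 on the log2 scale, against -3.01, 4.26, 1.95 and 2.75 after nanoceria. Of the 1474 genes that rose after nanoceria, 9 had a negative change after vehicle, and of the 1046 that fell, 23 had a positive one.

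List medians of the log2 fold change, given here after nanoceria, after vehicle and without injection, come from separate libraries, and their differences were not tested. Over all genes tested they were 0.04, 0.02 and -0.01. The medians were -1.13, -1.10 and -1.12 for the rod cascade, 0.99, 1.12 and 1.07 for the LIF pathway, 0.64, 0.69 and 0.59 for the integrated stress response and 0.45, 0.43 and 0.43 for the synthetases. The median after nanoceria was the lowest of the 3 for several immune lists, with 0.56, 1.35 and 2.09 for chemokines, -0.00063, 0.49 and 0.79 for activated phagocytes, -0.0018, 0.51 and 0.59 for complement, -0.06, 0.30 and 0.22 for MHC genes and -0.57, -0.08 and -0.35 for homeostatic microglia, but not in interferon-stimulated genes, with 0.80, 1.03 and 0.71, or in genes of TNF, interleukin 1 and NF-kB, with 0.56, 0.55 and 0.71. Markers of granulocytes had medians of -0.17, 1.51 and 1.92, and those of T cells of -0.57, 0.56 and 0.92. Before light, summed T cell markers were at 23.9 to 42.9, 17.1 to 31.5 and 13.9 to 22.9 CPM in the same order. Summed granulocyte markers were at 2.71 to 7.72, 2.62 to 4.38 and 1.14 to 2.3 CPM. With light the ranges overlapped, at 13.7 to 32, 18.8 to 28.1 and 15 to 24.4 CPM for T cells. For granulocytes they were 2.52 to 7.18, 2.12 to 21.3 and 1.68 to 9.93 CPM. Lens markers had medians of -0.12, -2.40 and -0.17, with the lowest after vehicle. Of 20 chemokines and receptors, 5 differed between nanoceria and no injection by the contrast itself, and 1 of 13 microglial and 2 of 21 phagocyte genes did, against 0.409% of all genes, a count that left-out libraries moved as given with the 74 genes.

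For the difference between nanoceria and vehicle, the 5 genes with the smallest unadjusted p were Chi3l1, Cd84, Nog, Fyb and Klhl6. Chi3l1, a chitinase-like protein of glia and macrophages, differed by -1.51, SE 0.41, unadjusted p = 0.000999. It was at 44.7 to 135 CPM with vehicle, 167 to 456 CPM with vehicle plus light, 153 to 299.6 CPM with nanoceria and 177 to 301 CPM with nanoceria plus light. Its levels with light overlapped, and the level before light was higher in every nanoceria library than in any vehicle library. Cd84 differed by -1.25, SE 0.34, unadjusted p = 0.0011, and Nog, an antagonist of bone morphogenetic proteins, by -1.76, SE 0.48, unadjusted p = 0.00112. Fyb, an adaptor protein of leukocytes, differed by -0.90, SE 0.25, unadjusted p = 0.00126 and Klhl6, of lymphocytes, by -0.84, SE 0.24, unadjusted p = 0.00146. None of the 5 had an adjusted p under 0.05 for this difference from vehicle.

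Against the response without injection, 74 genes differed (0.409% of 18094), 14 with a higher and 60 with a lower log2 fold change after nanoceria. Of the 74, 26 changed with light after nanoceria, 42 rose with light without injection and did not pass after nanoceria, and 69 had a response after vehicle between the other 2. This contrast holds the injection as well as the nanoceria. The number of genes was 14 without control replicate 2, 17 without light damage replicate 5, 19 without nanoceria replicate 1 or 3, 30 without nanoceria replicate 2, 31 without nanoceria plus light replicate 5, 37 without nanoceria plus light replicate 2 and 158 without light damage replicate 2. Without any other control, light damage or nanoceria library that moved it by over 1.5 times (control replicates 1, 4 and 6, light damage replicates 3, 4, 6 and 7, and nanoceria replicate 5) it was 40 to 47. Summing near-identical libraries gave 39 genes, a term for sex 47, a block for replicate number 16 and the Wald test of DESeq2 275.

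The 5 lowest differences were those of Nlrp1a, Chi3l1, Ccl2, Myo1g and Il17rb. Nlrp1a, an inflammasome sensor of a gene family with close copies, was at 1.63 to 2.26 CPM in controls, 8.42 to 13.3 CPM with light alone, 6.16 to 8.65 CPM with nanoceria and 1.89 to 8.71 CPM with both (difference -2.96, SE 0.53, adjusted p = 0.0143). Chi3l1 was at 17.8 to 33.9 CPM in controls and 159 to 295 CPM with light alone (difference -2.63, SE 0.40, adjusted p = 0.00438). In both genes the nanoceria libraries lay above every control before light. Il17rb, an interleukin 17 receptor, was at 0.563 to 0.893 CPM, 2.92 to 4.78 CPM, 2.36 to 5.97 CPM and 4.33 to 8.45 CPM in the same order (difference -1.998, SE 0.37, adjusted p = 0.0161).

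Ccl2 rose in both settings, from 0.541 to 1.21 CPM to 57.4 to 140.4 CPM without injection and from 1.92 to 2.53 CPM to 14.1 to 64.2 CPM after nanoceria (difference -2.62, SE 0.56, adjusted p = 0.0294). Its difference did not pass without any 1 of control replicates 1 and 2, light damage replicates 5 and 6, any nanoceria library, or nanoceria plus light replicates 2 and 5 (adjusted p = 0.0501 to 0.0804), nor with near-identical libraries summed (0.056). Myo1g, a myosin of blood cells, differed by -2.28, SE 0.47, adjusted p = 0.0266, and not without control replicates 1 or 2, light damage replicate 5, nanoceria replicates 1 or 3 or nanoceria plus light replicates 2 or 5 (0.0501 to 0.0645).

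The 5 highest differences were those of Trib3, Etv4, Suox, Fkbpl and Wrap53. Trib3 was at 5.89 to 25.4 CPM in controls, 10.9 to 16.1 CPM with light alone, 3.62 to 4.5 CPM with nanoceria and 7.24 to 16.4 CPM with both (difference 1.71, SE 0.40, adjusted p = 0.0476). The controls had the widest range of these groups. Etv4, a factor downstream of FGF signals, differed by 0.83, SE 0.19, adjusted p = 0.0476. The differences of Trib3 and Etv4 did not pass without 17 of the 21 libraries in turn (adjusted p = 0.0556 to 0.109 and 0.0504 to 0.121), the exceptions being control replicates 1 and 4, light damage replicate 2 and nanoceria plus light replicate 3 for Trib3, and light damage replicate 2 and nanoceria plus light replicates 2, 3 and 4 for Etv4. Neither passed with the size factors of DESeq2, library size alone, no filter on low counts or near-identical libraries summed (adjusted p = 0.0526 to 0.0799 for Trib3 and 0.058 to 0.0858 for Etv4), nor did Trib3 with a term for sex (0.0887). Suox, sulfite oxidase, differed by 0.57, SE 0.12, adjusted p = 0.0372, Fkbpl, a relative of immunophilins, by 0.56, SE 0.11, adjusted p = 0.0258 and Wrap53, a telomerase cofactor, by 0.52, SE 0.11, adjusted p = 0.0266. Suox and Fkbpl did not pass with library size alone (adjusted p = 0.0789 and 0.0741). Suox did not pass without 14 of the 21 libraries (0.0506 to 0.107), all but control replicates 1 and 5, light damage replicates 2, 4 and 7, nanoceria replicate 5 and nanoceria plus light replicate 2. Wrap53 did not pass without control replicates 2, 4 or 6, light damage replicate 5, any nanoceria library or nanoceria plus light replicate 5 (0.0501 to 0.074), and Fkbpl not without light damage replicates 1 or 5 or nanoceria replicates 1 or 3 (0.0501 to 0.0615).

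**Figure D5:**
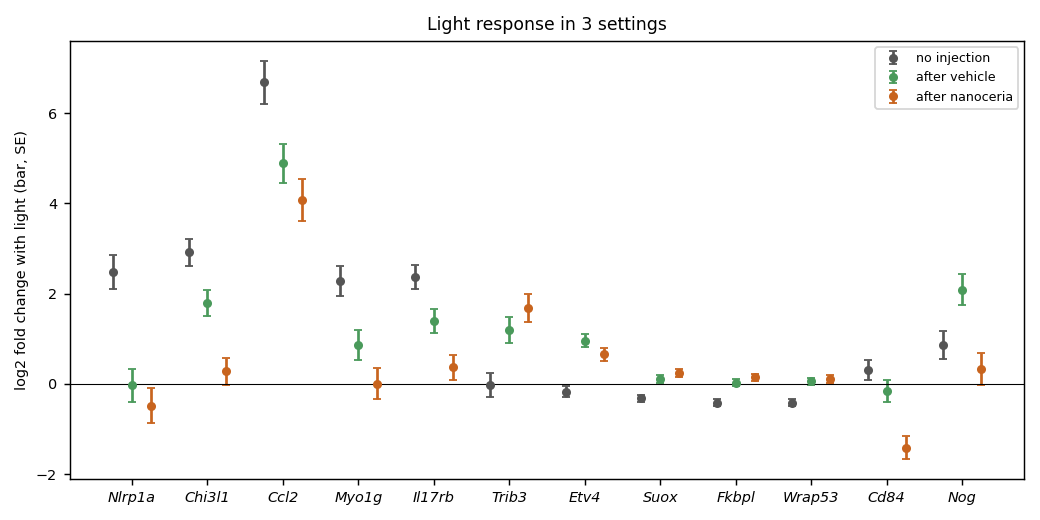
Log2 fold change with light (y axis, bars 1 SE) without injection (grey), after vehicle (green) and after nanoceria (orange) for 12 genes named for a difference between settings. For Nlrp1a, Chi3l1, Ccl2, Myo1g and Il17rb the response is highest without injection and lowest after nanoceria, and none of the differences between nanoceria and vehicle passed.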

How the data were processed

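Libraries of polyA RNA from whole rat retina were read as pairs of 150 bp. The authors deposited 1 table of whole-number counts per gene for 31 libraries. Per the submitters' processing notes, Trimmomatic 0.39, STAR 2.7.9a, featureCounts of Subread 2.0.1, DESeq2 1.30.1 and R 4.0 were used, and the build was rn6. For the strand setting and the gene annotation, not given in the sources used here, nothing was assumed, and reads of overlapping genes cannot be told apart. Libraries were grouped by their labels, and p-values measure the spread between them. The members, gene lists and tests were chosen with earlier results of these data known.

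Counts as deposited were fitted with edgeR 4.0.16 (R 4.3.3): TMM factors, genes kept by filterByExpr (minimum count 10, minimum total 15), 6 group means over 31 libraries, which share 1 estimate of spread, and a robust quasi-likelihood test. Vehicle replicates 4 and 7, and light damage replicates 4 and 7, were near-identical in counts but entered this fit as separate libraries. Summed, they gave 2332 genes called for light after nanoceria and 39 for the difference from no injection. P-values were adjusted with the Benjamini-Hochberg method over 18094 genes, and calls needed an adjusted p under 0.05. Differences between light responses were tested as contrasts in the same fit. On simulated counts of 17984 genes the comparison of light after nanoceria called 52.2% of 67 genes changed 1.5-fold, 83.6% of 67 changed 2-fold and 93.9% of 66 changed 4-fold, with 0 false calls. These counts were drawn from the spread that the fit itself estimated. Only those genes were changed, with rises and falls in equal number. The simulation therefore cannot give the rate of false calls in the real libraries. Log2 CPM had a prior count of 2.

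Named genes were the 12 highest and 12 lowest called changes with a mean log2 CPM of at least 1, up to 5 genes for each difference and direction, and members of the lists. For the contrast with vehicle, where none was called, they were the 5 with the smallest p. Some genes that the rule takes in are not reported here. Of the 722 symbols listed, 703 have a row in the table and 698 passed the filter. Promoter windows came from RefSeq (GRCr8) for 11872 tested genes, 570 of all matches through an older symbol, and were searched on both strands for the 5 motifs of the text, for TGACNNNGC and its variant TGAGNNNGC, bound by NRF2, and for GAANNTTC, bound by heat shock factors. The NRF2 motif, in 31.2% of all windows, and the heat shock motif, in 5.83%, were used only to look for overlaps.

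Alternatives were DESeq2 size factors, library size alone, no filter on low counts, a replicate block, a term for sex read from Y-linked genes, only the 9 libraries, near-identical libraries summed (vehicle 4 with 7, light damage 4 with 7), the Wald test of DESeq2 1.42.0 and each library left out in turn. Deviations of same-numbered nanoceria and nanoceria plus light libraries correlated at -0.03, 0.38, 0.38 and 0.10. Those of differently numbered libraries correlated at -0.53 to 0.28. The numbers were not taken to pair the libraries, which these values do not settle. Total counts per library are given above for the 2 compared groups, and the number of libraries limits the precision. Light damage replicate 1, which entered the shared fit, had 25158407 counts, with 29.7% of them in the 20 largest genes. The other light damage libraries had 106556304 to 149429413 counts and 8.81% to 9.73%. Without replicate 1 of light damage, 54 genes differed from the response without injection.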

Additional observations from a re-analysis of the deposited data

Results flagged for a closer look

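Among 252 groups of the genes followed (4 nanoceria or 5 nanoceria plus light libraries), 10 held a library far from the others, where chance gives about 1 in 20 groups. The gap to the nearest library, as a share of the group's range, was 0.851 for Cngb1, 0.951 for Cc2d2a, 0.873 for Pkm and 0.893 for Rgs22, each time through nanoceria replicate 5. It was 0.885 for Ciita and 0.853 for Nlrp1a through nanoceria replicate 3. With light, it was 0.777 for Sag, 0.795 for Fscn2 and 0.789 for Cc2d2a through replicate 4, and 0.730 for Tars through replicate 5. Replicate 5 of the light group also had the intermediate level of Y-linked RNA, and Tars stayed called without it (adjusted p = 2.32e-08).

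The light response after nanoceria differed from that without injection, by the contrast itself in edgeR at an adjusted p under 0.05, in 15 genes of those followed. The difference in log2 fold change was -1.09 for Ednra, -2.62 for Ccl2, -2.62 for Ccl3, -1.20 for Icam1 and -0.77 for Cry2. It was -2.96 for Nlrp1a, -2.63 for Chi3l1, -2.28 for Myo1g, -1.998 for Il17rb and -1.73 for Cd84. Positive differences were found for Trib3 (1.71), Etv4 (0.83), Suox (0.57), Fkbpl (0.56) and Wrap53 (0.52). The calls of Nlrp1a, Chi3l1, Il17rb and Ccl3 held without each library in turn. That of Icam1 did not pass without control replicate 2, light damage replicate 5, nanoceria replicates 1, 3 or 5 or nanoceria plus light replicate 2 (adjusted p = 0.0501 to 0.0652). That of Ednra did not pass without control replicate 2, light damage replicate 5, nanoceria replicates 2, 3 or 5 or nanoceria plus light replicates 2 or 5 (0.0501 to 0.074), that of Cd84 without control replicate 2 or nanoceria replicate 1 (0.0536 to 0.0551) and that of Cry2 without 17 of 21 libraries (0.051 to 0.0979), all but light damage replicates 1, 2 and 3 and nanoceria plus light replicate 5. Cry2 did not pass either with library size alone, no filter on low counts, a term for sex or near-identical libraries summed (adjusted p = 0.0558 to 0.0892). Which share of these differences belongs to the injection cannot be told apart in this contrast, and none of the 15 differed between nanoceria and vehicle at an adjusted p under 0.05.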

How the results depend on the processing

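For light after nanoceria, the 9 libraries fitted alone called 1107 genes (649 higher, 458 lower), of which 1082 were among the 2520. The fit leaves fewer residual degrees of freedom. Library size alone called 671 lower and the Wald test of DESeq2 1572 lower, and the cause was not tested. Leaving out 1 library gave 1685 to 3052 genes, 990 to 1801 higher and 695 to 1251 lower. The replicate block over all 31 libraries called 2272 genes, and over the 8 same-numbered libraries alone 674 (346 higher, 328 lower), a fit that drops the other groups and 1 library. Whether the numbers pair the libraries was not settled. Against vehicle, the Wald test called 1 gene and no other alternative called any. Against no injection, the block called 16 genes, the term for sex 47, summed near-identical libraries 39, the Wald test 275, and fits without 1 library 14 to 158. With the block the differences of Ednra, Ccl2, Icam1, Trib3, Cry2, Myo1g, Etv4, Suox, Wrap53 and Cd84 did not pass (adjusted p = 0.0707 to 0.149). The cause was not tested. No value called in either fit changed direction in any alternative. Of 102 called genes followed, 82 kept their call in 18 alternatives, and 17 of 24 genes that did not pass did so in none. Many of the genes followed were named for a large change or a small p, so these counts do not describe all called genes. Of all 2520, 42.9% kept their call with the 9 libraries alone and 25.3% with the block over the 8 same-numbered libraries. Without 1 library, the share of the 20 largest genes had an unadjusted exact p of 0.0286 or 0.0357, the smallest those designs allow, which is no call once adjusted over 3 shares. The exact test of 5 against 4 libraries cannot go below p = 0.0159.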

Other observations

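Glycolysis was the metabolic group with the most lower genes: 6 of 21 fell and none rose, a share of the list to be read against 5.78% of all genes. Hk2, the hexokinase isoform of photoreceptors, was at 524, 528, 586 and 720.2 CPM with nanoceria and 142, 179, 174, 83.9 and 214 CPM with light (log2 fold change -1.90, SE 0.25, adjusted p = 5.22e-06). Its groups did not overlap, and light replicate 4 was lowest, as in the rod genes. Slc16a1, a transporter of lactate, fell (log2 fold change -0.88, SE 0.12, adjusted p = 1.29e-05), and so did Pkm, pyruvate kinase (log2 fold change -0.92, SE 0.15, adjusted p = 5.69e-05). Rod shares of counts fell in the same libraries, and their part in the glycolytic change was not tested. Of 23 genes of sterol synthesis and uptake 1 fell, Abcg1, which exports cholesterol (log2 fold change -0.52, SE 0.08, adjusted p = 7.32e-05), and none rose. Without nanoceria replicate 3, 2 of them rose, and without light replicate 2, 1 did.

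Clock genes moved in both directions, with 3 of 17 higher (Npas2 0.73, Cry1 0.29 and Bhlhe40 0.30) and 5 lower (Cry2, Dbp, Nr1d2 -0.54, Tef -0.48 and Bhlhe41 -0.60). Those are 17.6% and 29.4% of the list, against 8.15% and 5.78% of all genes tested. Cry2, a repressor of the clock, was at 192, 195, 178 and 195 CPM without and 92.5, 119.7, 102, 95.5 and 125.97 CPM with light (log2 fold change -0.83, SE 0.13, adjusted p = 6.69e-05). Dbp, an output factor of the clock, was at 241, 241, 169 and 160.4 CPM and then 134, 123, 107, 119 and 128 CPM (log2 fold change -0.73, SE 0.17, adjusted p = 0.00314). The groups of both genes lay apart. Those that rose numbered 0 without nanoceria replicate 2 or light replicate 4 and 1 without nanoceria replicate 1, 3 or 5 or light replicate 3, 0 with the 9 libraries alone, and 1 with the size factors or the Wald test of DESeq2 or without a filter on low counts. The time of day of collection is not given in the sources used here. Of 14 cell cycle genes Pcna, the polymerase clamp, rose (0.27) and Tyms, thymidylate synthase, fell (-0.60), and Pcna did so in no fit that left out a nanoceria library or light replicate 3, 4 or 5.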
